A study of Caenorhabditis elegans with 2 samples.

Results

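The vacuolar ATPase genes and the genes of the main lysosomal proteases and membrane proteins of Caenorhabditis elegans were examined for chromatin immunoprecipitation peaks of NHR-102, a nuclear hormone receptor. Members were all protein-coding genes of the Ensembl WBcel235 annotation named vha, asp, cpr or cpl with a number, together with unc-32, ctns-1, lmp-1, lmp-2 and scav-3, which gave 51 of 19985 protein-coding genes. They comprised 21 vacuolar ATPase genes, 17 aspartyl protease genes, 9 cysteine protease genes and 4 genes of lysosomal membrane proteins. Members were set by gene name, in a list drawn up with earlier results of these data known.

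The animals were whole L4 hermaphrodites of strain OP463, genotype unc-119(tm4063) III; wgIs463, collected 50 h after synchronization as starved L1 larvae obtained by bleaching. The integrated transgene carries NHR-102 with a GFP and FLAG tag at its C-terminus, and chromatin sheared with a microtip sonicator was precipitated with an antibody against GFP. Both biological replicates belong to 1 group, and they shared a control file. Untagged animals were not analysed here, so precipitation of tagged NHR-102 cannot be told apart from signal that any such precipitation gives, and whole animals do not show in which tissue a site was occupied.

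The vacuolar ATPase is a rotary proton pump of endomembranes. Its cytosolic V1 sector hydrolyses ATP, and its membrane V0 sector, built around a ring of proteolipids, carries protons into the lumen. The acid lumen activates aspartyl proteases of the cathepsin D type and cysteine proteases of the cathepsin B and L types, which digest protein delivered by endocytosis and autophagy. In mammals many of these genes share a short E-box element read by TFEB, whose worm homologue is HLH-30, while many intestinal genes of the worm carry sites for GATA factors such as ELT-2.

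Reproducible peaks of NHR-102 lay after the 3' ends of more of these genes than in their promoters. The strongest promoter peak lay on a tRNA gene upstream of the cysteine protease gene cpr-9. Those of cpr-4, vha-1 and vha-8 came next. The list of reproducible peaks used here, filtered by the authors on the irreproducible discovery rate (IDR), held 2796 peaks, each with a summit and a signal value given by the authors' caller. These were exactly the 2796 strongest peaks of the pooled list, which held 30000. The pooled list is labelled as peaks and background for input to IDR, and each replicate list also held 30000 entries. Weak entries of these long lists may therefore be background. Promoters were taken as the 1000 bp before and the 200 bp after every annotated 5' end, and a summit there was counted for that gene. By this count 11 of the 51 members had a summit, which is 21.6% (exact binomial 95% interval 11.3 to 35.3), beside 8.95% of all protein-coding genes. Within 500 bp after the 3' end, 18 members had an IDR summit, or 35.3% (22.4 to 49.9), beside 4.05% of all protein-coding genes. This second measure was chosen after its values were seen. With summits in promoter windows left out it gave 11 members (21.6%), as many as had a promoter summit, beside 2.07% of all genes.

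The stretches of genome under the protease summits are shown first, because all 4 promoter summits that held the GATA site TGATAA within 100 bp, out of 12 at members, belonged to cysteine protease genes. This depends on the reach, since within 200 bp the summits of vha-11, vha-13 and asp-12 also held it. Capitals mark TGATAA on either strand, so that it can read TTATCA, and each stretch was kept free of annotated untranslated regions. All sequences are from the RefSeq genome of WBcel235, which matches ce11.
cpr-4 (chrV:6614527-6614673, plus strand): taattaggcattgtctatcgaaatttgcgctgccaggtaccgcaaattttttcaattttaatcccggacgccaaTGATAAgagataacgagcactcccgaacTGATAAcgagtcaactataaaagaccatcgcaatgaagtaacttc
cpl-1 (chrV:16595443-16595643, minus strand): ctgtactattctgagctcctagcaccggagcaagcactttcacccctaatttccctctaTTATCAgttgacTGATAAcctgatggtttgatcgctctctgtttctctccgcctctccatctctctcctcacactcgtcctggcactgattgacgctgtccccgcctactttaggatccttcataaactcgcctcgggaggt
cpr-6 (chrX:6607252-6607386, plus strand): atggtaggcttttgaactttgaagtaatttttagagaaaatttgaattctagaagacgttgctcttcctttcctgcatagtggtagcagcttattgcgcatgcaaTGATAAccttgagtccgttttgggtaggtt
cpr-9, weaker summit (chrV:12002350-12002510, plus strand): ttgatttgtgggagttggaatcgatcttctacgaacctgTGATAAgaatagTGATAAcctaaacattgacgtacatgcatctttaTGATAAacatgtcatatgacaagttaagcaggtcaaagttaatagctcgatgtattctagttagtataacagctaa

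At cpr-4 the pair of sites lay 26 bp before and 2 bp after the summit, counted to the first base of each site. The 3 sites at the weaker cpr-9 summit lay 41 and 29 bp before it and 5 bp after it, and a copy of AGGTCA, the core hexamer of many nuclear receptor sites, lay 34 bp after it. At cpr-6 the site shown lay 71 bp after the summit, and another, not shown, lay 97 bp before it.

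The strongest promoter peak of any member, upstream of cpr-9, lay on a tRNA gene, and the E-box CACGTG was found at the asp-12 summit alone among the 12. The 1 capital run in the first stretch marks the tRNA gene, and that in the second marks CACGTG.
cpr-9, stronger summit (chrV:12002147-12002307, plus strand): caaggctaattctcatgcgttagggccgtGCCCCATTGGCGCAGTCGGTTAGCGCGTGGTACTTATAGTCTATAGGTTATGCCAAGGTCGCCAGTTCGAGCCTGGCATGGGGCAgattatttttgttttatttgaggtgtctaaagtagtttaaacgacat
asp-12 (chrV:8269961-8270161, plus strand): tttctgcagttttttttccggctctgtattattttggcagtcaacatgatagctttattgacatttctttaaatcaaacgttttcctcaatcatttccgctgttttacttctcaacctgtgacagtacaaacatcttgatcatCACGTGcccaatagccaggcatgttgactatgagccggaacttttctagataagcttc

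The vacuolar ATPase sites carried neither TGATAA nor CACGTG in the stretches shown. They are the most strongly marked promoter regions of V0 and V1 subunits and 3 of the sites after 3' ends, and capitals mark the 11 bases centred on the summit.
vha-1 promoter (chrIII:9780711-9780871, plus strand): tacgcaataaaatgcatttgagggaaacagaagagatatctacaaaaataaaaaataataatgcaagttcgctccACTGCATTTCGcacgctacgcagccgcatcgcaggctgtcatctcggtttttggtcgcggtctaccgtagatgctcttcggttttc
vha-8 promoter (chrIV:6790571-6790731, plus strand): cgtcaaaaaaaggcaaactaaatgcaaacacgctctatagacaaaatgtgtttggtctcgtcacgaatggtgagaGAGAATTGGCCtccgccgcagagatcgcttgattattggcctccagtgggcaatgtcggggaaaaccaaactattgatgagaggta
vha-12 promoter, summit of replicate 1 (chrX:4190686-4190846, plus strand): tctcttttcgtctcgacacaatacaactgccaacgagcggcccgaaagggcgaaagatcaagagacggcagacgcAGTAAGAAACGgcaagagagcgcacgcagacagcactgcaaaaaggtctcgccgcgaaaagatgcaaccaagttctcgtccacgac
vha-8, after the 3' end (chrIV:6792570-6792730, plus strand): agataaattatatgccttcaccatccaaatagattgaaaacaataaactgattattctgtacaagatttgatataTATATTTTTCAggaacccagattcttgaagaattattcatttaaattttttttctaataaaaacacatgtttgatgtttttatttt
vha-12, after the 3' end (chrX:4193284-4193444, plus strand): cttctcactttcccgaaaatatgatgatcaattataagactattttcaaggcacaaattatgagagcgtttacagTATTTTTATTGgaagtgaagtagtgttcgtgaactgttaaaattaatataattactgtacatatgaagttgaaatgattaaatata
vha-14, after the 3' end (chrIII:9509960-9510120, plus strand): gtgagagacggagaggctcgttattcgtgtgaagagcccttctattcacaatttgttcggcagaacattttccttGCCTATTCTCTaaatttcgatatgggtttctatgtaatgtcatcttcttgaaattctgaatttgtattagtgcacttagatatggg

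In these stretches, the share of G and C was 44.1% at the vha-1 promoter, 46.0% at the vha-8 promoter and 54.0% at the vha-12 promoter. After the 3' ends it was 22.4% for vha-8, 27.3% for vha-12 and 38.5% for vha-14. Over all member summits, with 100 bp to each side, the median share was 46.0% at 12 promoter summits and 35.3% at 21 summits after 3' ends. The same medians over all genes were 40.8% at 1526 promoter summits and 38.3% at 801 summits after 3' ends, so the gap between the ends was wider at members.

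Vacuolar ATPase genes had promoter summits at 6 of 21, or 28.6% (11.3 to 52.2), and these spanned both sectors. Of 9 V1 genes 3 had one, vha-8, vha-11 and vha-13. Of 10 V0 genes 2 had one, the neighbouring proteolipid genes vha-1 and vha-2. The remaining summit was at vha-20, 1 of 2 accessory genes, whose RefSeq product is called renin receptor-like.

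The vha-1 peak was the strongest promoter peak of the pump. It lay at chrIII:9780569-9781012, with its summit 463 bp upstream of vha-1 and 437 bp upstream of the divergent gene sqv-3, a glycosyltransferase gene of glycosaminoglycan synthesis. Its signal was 173.4, rank 1025, and it had a signal of 103.4 (rank 850) in replicate 1 and 63.43 (rank 1832) in replicate 2. It stood among the 2796 strongest in both.

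The vha-8 peak, at the gene of subunit E in the V1 stalk, was nearly as strong. It lay at chrIV:6790429-6790872 with its summit 423 bp upstream, and only 163 bp upstream of C17H12.2, with which it was shared. Its signal was 169.9 (rank 1062), with 91.46 (rank 1060) in replicate 1 and 72.82 (rank 1452) in replicate 2. Both windows therefore hold a second gene whose 5' end is the nearer one, and giving each summit to the nearest 5' end takes vha-1 and vha-8 off the list.

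The other vacuolar ATPase promoter summits were weaker, and 3 of them had summits in coding exons instead of upstream. For vha-11, subunit C, the peak at chrIV:2314423-2314567 had its summits 104 and 72 bp downstream of the 5' end in replicates 1 and 2, with a signal of 113.0 (rank 2014), and replicate signals of 65.49 and 51.99. For vha-20 it lay 119 bp downstream at chrX:14164341-14164465, with a signal of 102.5 (rank 2329) and 70.52 and 39.57 in the replicates. For vha-2 it lay 39 bp downstream at chrIII:9781981-9782424, with a signal of 98.35 (rank 2472) and 67.68 and 46.29 in the replicates.

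The vha-2 and vha-20 peaks were outside the 2796 strongest of replicate 2, at ranks 3089 and 4099, so they rest more on replicate 1. The vha-2 peak is also in the window of R10E11.6, 803 bp upstream of it, and 440 bp after the 3' end of vha-1, which precedes vha-2 on the same strand by 400 bp. The last, for the catalytic subunit A gene vha-13, lay 567 bp upstream at chrV:14350920-14351363, in an annotated untranslated region of cept-2. Its signal was 98.03 (rank 2485), with 57.12 and 54.21 in the replicates. Of all promoter summits of the IDR list, 6.62% lay in a coding exon, and of the 12 at members, 3 did (25.0%).

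The gene of subunit B, vha-12, had strong promoter peaks in both replicates and none in the pooled or IDR list. Replicate 1 had a signal of 135.2 (rank 491) with the summit 328 bp upstream, and replicate 2 had 132.6 (rank 471) with the summit 335 bp upstream. The replicate 1 interval was chrX:4190538-4190993. These were the strongest vacuolar ATPase promoter peaks in either replicate list, yet the nearest pooled peak was 1129 bp away with a signal of 39.66.

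Such an omission was rare. Of 1983 summits among the 2796 strongest of replicate 1 that also lay in such a peak of replicate 2, 33 (1.66%) were in no pooled peak, of which 13 were on X, and vha-12 was the only member among them. Its cause was not tested. Counting genes with a promoter summit among the 2796 strongest of both replicates gave 10 members (19.6%), vha-12 now included and vha-2 and vha-20 not, beside 6.63% of all protein-coding genes. Replicate 1 alone gave 15 members (29.4%) beside 8.65% of all, and replicate 2 alone 10 (19.6%) beside 8.40%.

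Cysteine protease genes had promoter summits at 4 of 9, 44.4% (13.7 to 78.8), and these included the strongest among members. The window of cpr-9, a cathepsin B-like gene, held 2 summits and was shared with gcy-33, a soluble guanylate cyclase gene. The stronger, at chrV:12002029-12002495, lay 826 bp upstream of cpr-9 and 430 bp upstream of gcy-33 with a signal of 378.4 (rank 213). Replicate 1 had 173.3 (rank 278) and replicate 2 had 211.6 (rank 172).

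That summit was inside the tRNA gene WBGene00014406 at chrV:12002176-12002260, and tRNA genes held 25 of 1526 promoter summits (1.64%). The weaker cpr-9 summit lay 623 bp upstream, with 118.7 (rank 1872) overall. In replicate 1 its signal was 91.36 (rank 1063), but in replicate 2 it was 14.70 (rank 20378), so it was strong in replicate 1 alone. Without the cpr-9 window 10 members had a promoter summit.

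The cpr-4 and cpl-1 peaks lay close upstream of their own genes and of no other. In C. elegans, CPR-4 is a cathepsin B that can be secreted, and CPL-1 is the cathepsin L needed to process yolk in the embryo. For cpr-4 the summit lay 47 bp upstream at chrV:6614467-6614698, with a signal of 208.5 (rank 732), 126.0 (rank 586) in replicate 1 and 80.24 (rank 1210) in replicate 2. The replicate summits were 47 and 49 bp upstream, so they coincided within 2 bp.

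For cpl-1 the summit lay 197 bp upstream at chrV:16595448-16595588, with 146.3 (rank 1348), and 82.69 and 66.35 in replicates 1 and 2. For cpr-6, another cathepsin B-like gene, it lay 79 bp downstream in an intron at chrX:6607064-6607507, with 150.0 (rank 1294). Replicate 1 gave cpr-6 a signal of 55.44 (rank 2508) and replicate 2 a signal of 97.26 (rank 879), so it was higher in replicate 2, as was the tRNA summit. Of the 12 member summits, 9 (75.0%) ranked better in replicate 1, beside 51.9% of all promoter summits found in both lists.

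Aspartyl protease genes had a promoter summit at 1 of 17, 5.88% (0.149 to 28.7), near the share of all genes. In the pooled list 7 of 17 (41.2%) had one, beside 34.3% of all protein-coding genes, and 9 of 17 had none in any of the 4 lists. The gene with a summit in the IDR list was asp-12. Its summit, at chrV:8269839-8270282, lay 582 bp upstream of the nearest 5' end and 851 bp downstream of the outermost, in an intron. The signal was 148.5 (rank 1319), with 82.65 and 62.27 in replicates 1 and 2, and it was among the 2796 strongest of both.

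The peak lies in a cluster where asp-6 and asp-12 are divergent, 272 bp apart, and asp-5 follows asp-12 by 328 bp on the same strand. A further IDR summit, with a signal of 98.47, lay 219 bp downstream of the asp-5 5' end, 19 bp past the promoter window. The 4 genes of lysosomal membrane proteins had no promoter summit in the IDR list, but all 4 had one in the pooled list.

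**Figure D1:**
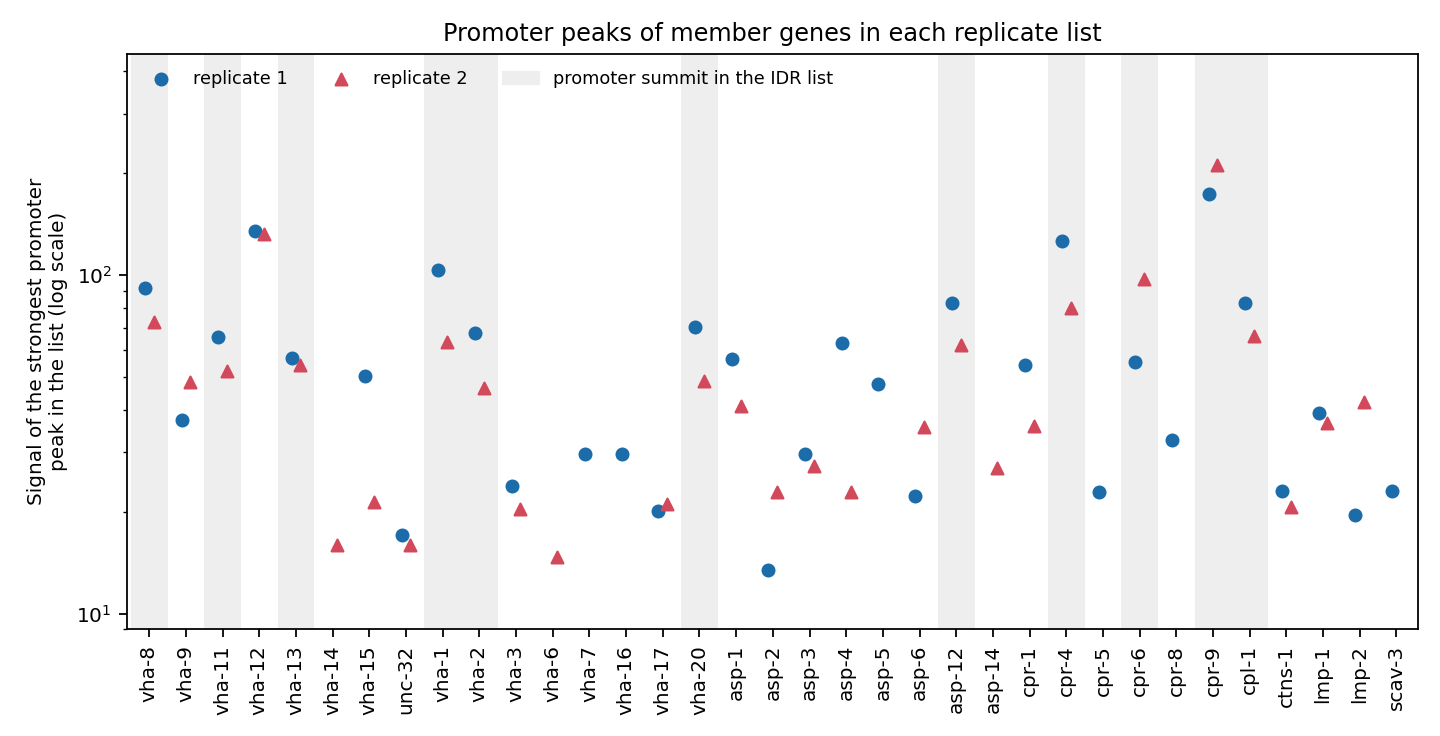
Signal of the strongest promoter peak of each member in the replicate 1 list (circles) and the replicate 2 list (triangles), on a log axis, for members with a promoter summit in either replicate list. Grey bands mark the 11 members with a promoter summit in the IDR list. The 2 symbols of vha-12, at 135.2 and 132.6, stand outside a grey band, and cpr-9 is highest in both lists.

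Weaker entries, some of which may be background, reached more of the members. In the pooled list 29 of 51, 56.9% (42.2 to 70.7), had a promoter summit, beside 34.3% of all protein-coding genes. On X 8 of 9 members had one, beside 31.9% of all genes of X, and on V 9 of 23, beside 23.9% of all genes of V. The 18 members with a pooled promoter summit and none in the IDR list all had signals below 90.52, the lowest of the IDR list.

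Among aspartyl protease genes, asp-4 and asp-3 encode cathepsin D-like enzymes that act in necrotic death of worm neurons. The asp-4 peak came closest to the IDR list with a pooled signal of 76.09 (rank 3624), from 63.26 in replicate 1 and 22.90 in replicate 2, a wide gap. The asp-1 peak had 70.86 (rank 4049), from 56.49 and 41.06, although its strongest summits in the 2 replicates were at different places, 892 and 354 bp upstream. The asp-3 peak had 58.68 (rank 5492), from 29.55 and 27.36.

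The asp-6 peak had 45.82 (rank 8269) and the asp-14 peak 34.40 (rank 12839). For vacuolar ATPase genes the strongest such peaks were at vha-15, a subunit H gene, with 61.22 (rank 5131), at vha-16, the subunit d gene, with 40.11, and at the proteolipid gene vha-3 with 38.30. For vha-7 and unc-32, which encode forms of subunit a, they were 30.21 and 23.62. The remaining ones, at vha-17 and vha-14, had 31.84 and 17.12. A stronger peak lay upstream of unc-32, the gene of the subunit a form known from worm neurons, but beyond its promoter window, at chrIII:8904132-8904446 in intergenic sequence, with a signal of 426.9 (rank 173).

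Genes of lysosomal membrane proteins fell in the same middle range. For lmp-2, a LAMP-like gene, the pooled signal was 63.91 (rank 4780). For ctns-1, which encodes the cystine transporter cystinosin, it was 46.28. For lmp-1, the other LAMP-like gene, it was 42.70, and for scav-3, a homologue of mammalian LIMP-2 that keeps worm lysosomes intact, 28.56. For cpr-8 it was 51.73, with a peak in replicate 1 only.

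Outside the pooled list, 6 members had a promoter summit in a replicate list, vha-12 among them. The matching share of all protein-coding genes is not given here. For vha-9, subunit F, replicate 1 had 37.35 and replicate 2 had 48.54, with summits 242 and 214 bp upstream. For cpr-1 they were 54.33 and 35.85, 46 and 63 bp upstream. The others, vha-6, asp-5 and cpr-5, had a peak in 1 replicate list each.

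The 16 members without a promoter summit in any list were 5 vacuolar ATPase, 9 aspartyl protease and 2 cysteine protease genes. They included vha-5 and vha-18, and the aspartyl protease genes asp-15, asp-16 and asp-17, which lie near each other on V. The lists give no reads, so lack of a summit does not show lack of occupancy. The share of all protein-coding genes without a promoter summit in any list is not given here. The gene of the tagged protein, nhr-102, also had no promoter summit in any of the 4 lists.

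Beyond the promoters, vacuolar ATPase genes stood out by summits after their 3' ends. This was noticed while the members were inspected, so the measure was chosen after its values were seen, and the counts are descriptive. Of 21 vacuolar ATPase genes 11, 52.4% (29.8 to 74.3), had an IDR summit within 500 bp after the 3' end, as had 3 of 9 cysteine protease genes, 2 of 17 aspartyl protease genes and 2 of 4 genes of membrane proteins. In the 500 bp before a 5' end, by contrast, only 4 of the 51 members had an IDR summit (vha-1, vha-8, cpr-4 and cpl-1), 7.84%, beside 6.34% of all protein-coding genes. For all genes the 500 bp before 5' ends thus held summits more often than the 500 bp after 3' ends, 6.34% against 4.05%, and for the members the order was the opposite.

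**Figure D2:**
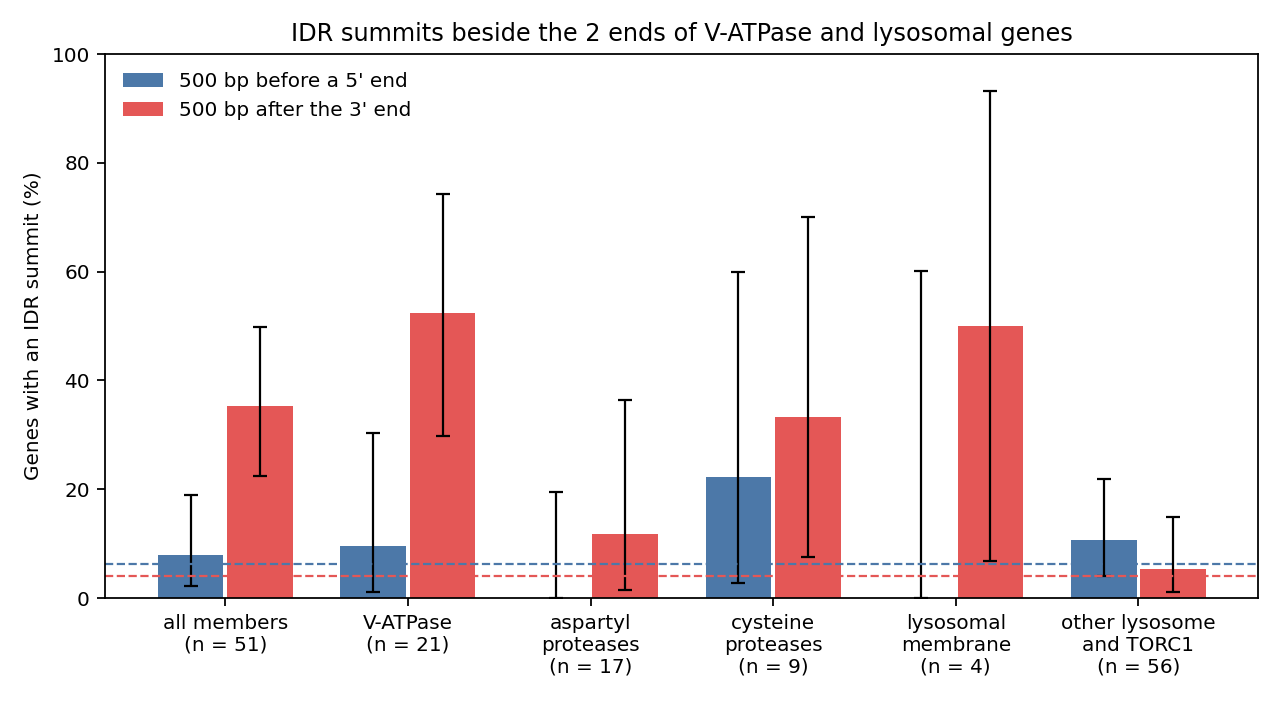
Share of genes with an IDR summit in the 500 bp before a 5' end (blue) and in the 500 bp after the 3' end (red), for the 51 members, each role, and other lysosome and TORC1 genes. Bars carry exact binomial 95% intervals and dashed lines give all 19985 protein-coding genes, at 6.34% and 4.05%. The red bar of the vacuolar ATPase reaches 52.4%, while that of the other lysosome and TORC1 genes is at 5.36%.

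The sites after V1 genes were at subunits A, B, D, E, G and H. After vha-13 the signal was 344.8 (rank 253), 100 bp past the 3' end and in a coding exon of Y49A3A.3. Replicate 2 had 206.9 there, replicate 1 had no peak at that summit, and a second IDR summit 299 bp past the end, with 179.2, had 163.6 in replicate 1 and 74.33 in replicate 2. The stronger summit is also in the promoter window of Y49A3A.3, so it is not a site of vha-13 alone. The one at 299 bp was in no promoter window but also in a coding exon of Y49A3A.3.

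After vha-8 the signal was 204.3 at 195 bp, from 139.4 and 67.63 in replicates 1 and 2, in intergenic sequence outside every promoter window. After vha-12 it was 153.0 at 220 bp, from 95.04 and 74.49. After vha-14, subunit D, it was 157.0 at 283 bp, from 67.98 and 93.31. These 3 genes showed the pattern with no other annotated promoter window at the summit, and all 6 replicate peaks ranked among the 2796 strongest of their lists.

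After vha-10, subunit G, it was 187.0 at 276 bp, also in the promoter window of ubl-5, and after vha-15 it was 101.8 at 312 bp. Among V0 genes, the site after vha-2 had 207.4 at 174 bp, in a coding exon and the promoter window of R10E11.6. After vha-4 it was 148.8 at 185 bp, in an intron and the window of T01H3.2. A second summit after vha-2, with 106.0 at 375 bp in an intron of R10E11.6, was in no promoter window, whereas the vha-4 site was shared.

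After vha-16 there were 2 intergenic summits, 150.0 at 410 bp and 100.5 at 210 bp, and after vha-17, subunit e, there was 1 with 110.3 at 199 bp. The site 440 bp after vha-1 is the vha-2 promoter peak described above. The sites after vha-16 and vha-17 were in no promoter window either. In replicate 2 their ranks were 2390, 4873 and 4817, so they were weaker there than in replicate 1.

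After the 3' end of cpl-1 a summit at 178 bp had 221.2, from 127.1 and 102.3 in replicates 1 and 2, more than at its own promoter in every list, and lay in the promoter window of srh-269. After cpr-6 the signal was 130.7 at 283 bp and after cpr-5 it was 92.48 at 126 bp, in the windows of C25B8.8 and W07B8.4, so all 3 cysteine protease sites were shared with another promoter. After asp-3 it was 109.8 at 122 bp and after asp-1 it was 107.2 at 157 bp, both intergenic and in no promoter window. The last 2, after scav-3 and lmp-1, had 100.8 at 80 bp, in the window of ani-1, and 97.77 at 259 bp, in none.

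Over all 18 genes, the 21 summits lay 80 to 440 bp past the 3' end, with a median of 210 bp. The median of the strongest signal per gene was 139.7, beside 137.7 for all genes with such a summit, so the signals were alike in size while the share of genes was higher. Of the 21 summits 13 (61.9%) lay inside a peak among the 2796 strongest of both replicates, beside 67.7% for all 801 such summits, and 11 (52.4%) had a summit of both within 100 bp, beside 59.4%. Of the 18 genes, 6 also had a promoter summit.

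Since worm genes are close together, 9 of the 21 summits also lay in the promoter window of another gene. With these left out, 11 members (21.6%) kept a summit, 8 of them vacuolar ATPase genes, beside 2.07% of all genes. Among the 2796 strongest peaks of replicate 1 alone, 16 members had a summit within 500 bp after the 3' end, beside 4.06% of all genes. In replicate 2 alone 14 had one, beside 4.02%. No transcript levels were measured here, so the part that a gene's activity plays in this pattern was not tested.

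**Figure D3:**
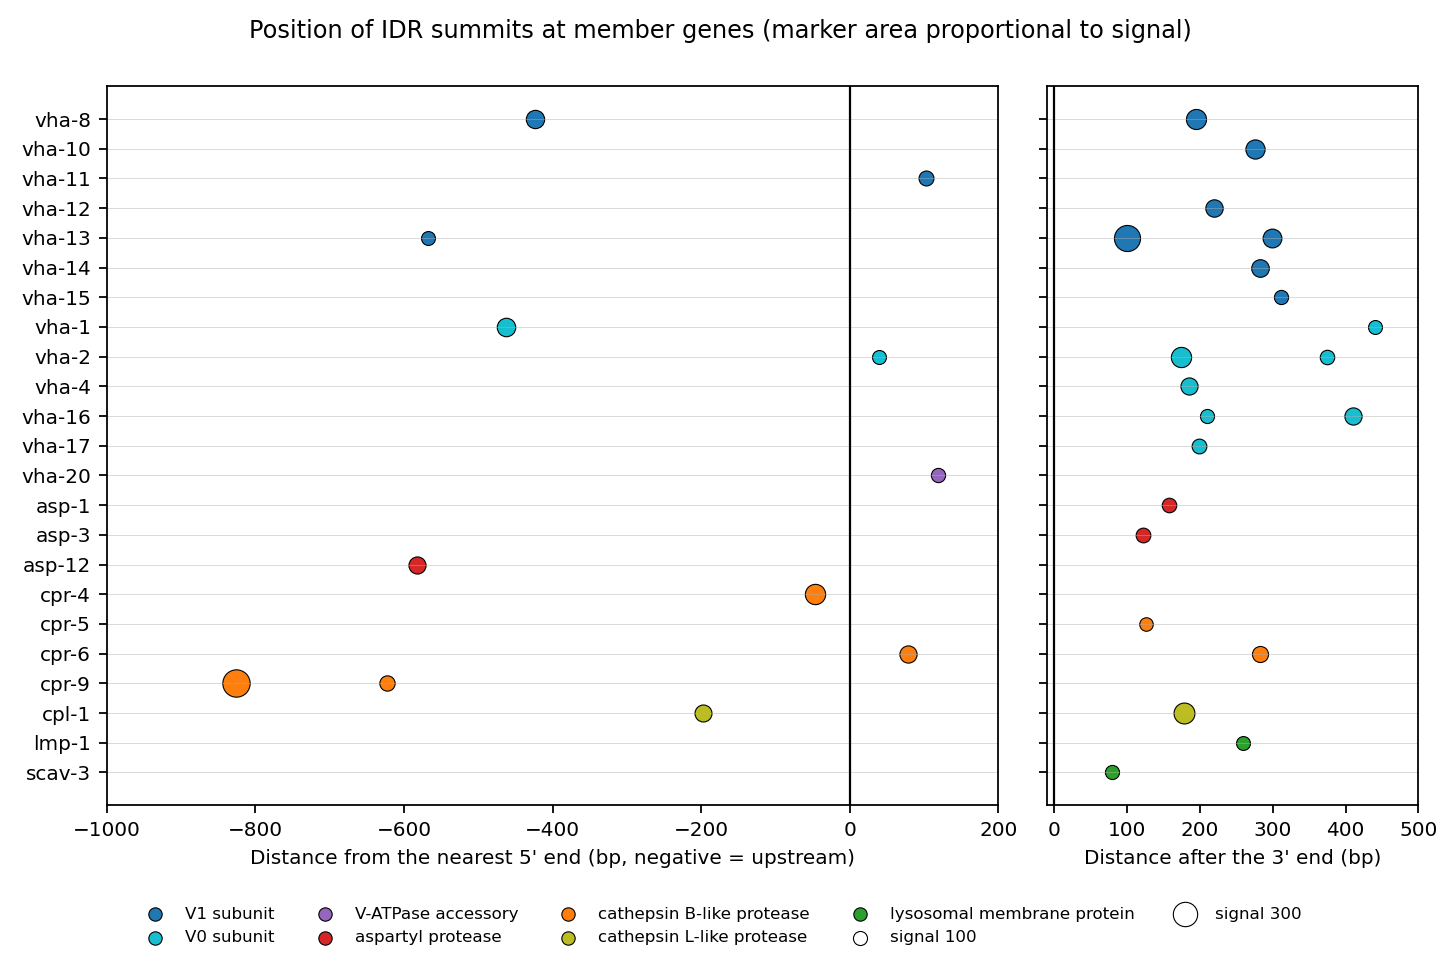
Positions of IDR summits at the 23 members with a summit in the promoter window (left, distance from the nearest 5' end, negative upstream) or within 500 bp after the 3' end (right). Marker area is proportional to signal and colour gives the role. Of the vacuolar ATPase genes, vha-1, vha-8 and vha-13 have a marker upstream and another after the 3' end, and the markers after 3' ends lie between 80 and 440 bp.

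Other genes of the lysosome and of TORC1 at its surface were near the share of all genes at their 3' ends. Of 59 listed genes 56 matched the annotation, and 3 of these (5.36%, 1.12 to 14.9) had an IDR summit within 500 bp after the 3' end, beside 18 of 51 members. Their promoter count was 7 of 56, 12.5% (5.18 to 24.1), an interval that includes the 8.95% of all protein-coding genes. In the pooled list it was 35 of 56 (62.5%), beside 34.3% of all. The difference from the members was not tested.

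The strongest of the 7 was at rheb-1, the GTPase that activates TORC1, with 324.1 at 282 bp upstream, from 174.9 and 148.7 in replicates 1 and 2, in a window shared with spk-1. At ccz-1, part of the exchange factor of RAB-7, it was 280.6 at 152 bp upstream, and at rab-7 itself, the GTPase of late endosomes, 178.7 at 770 bp upstream. Both windows were shared with other genes. At hlh-30 the signal was 132.0 at 249 bp upstream in an intron.

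The others were vps-39, a tethering subunit that works with RAB-7, with 2 summits of 133.8 and 123.9, ppk-3, the kinase that makes the phosphoinositide of late endosomes, with 99.09, and spin-4, a spinster family transporter, with 97.28.

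The promoter sequences of the roles differed in the GATA site more than the peaks did. In the 250 bases before to 50 after the start, TGATAA on either strand was present in 9 of 9 cysteine protease genes (66.4 to 100) and in 14 of 17 aspartyl protease genes, 82.4% (56.6 to 96.2). It was present in 4 of 21 vacuolar ATPase genes, 19% (5.45 to 41.9), in 0 of 4 genes of membrane proteins, and in 30.2% of all protein-coding genes. Related genes of a family share sequence, so these are not independent promoters.

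The site and the peaks did not have the same order across all roles. The cysteine protease genes, with TGATAA in 9 of 9 promoters, had promoter summits in the IDR list at 4 of 9. The aspartyl protease genes, with it in 14 of 17 promoters, had 1, and the vacuolar ATPase genes, with it in 4 of 21, had 6. Whether the site has a part in the peaks was not tested. Within 100 bp of the summit TGATAA was found at 4 of 12 member promoter summits (33.3%), beside 24.4% of all 1526. It was found at 4 of 21 member summits after 3' ends (19%), beside 23.7% of all 801.

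**Figure D4:**
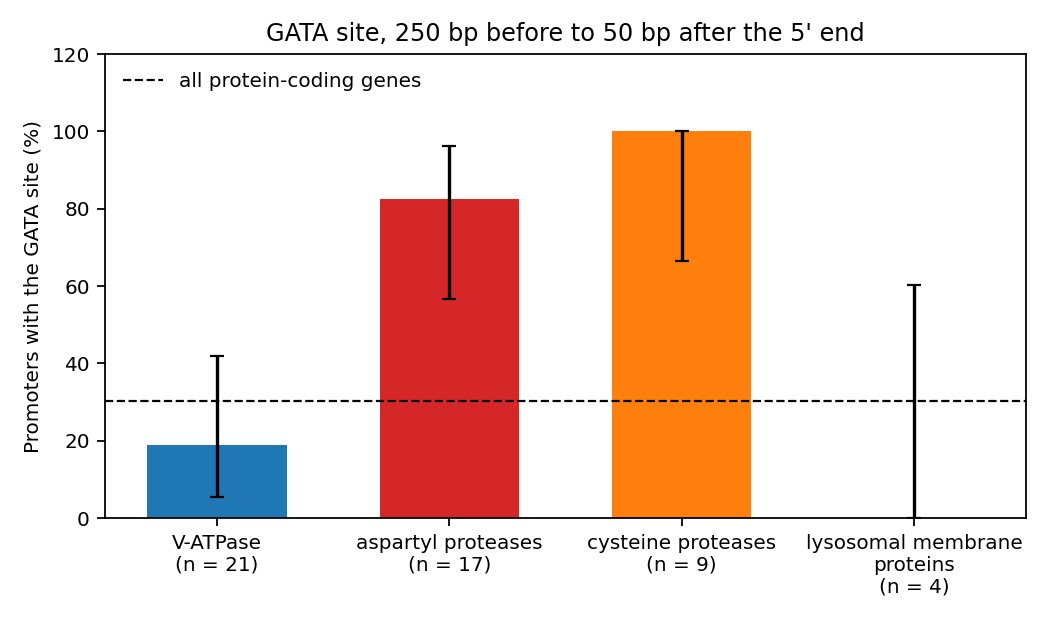
Share of genes with the GATA site TGATAA on either strand in the 250 bases before to 50 after the start, by role, with exact binomial 95% intervals. The dashed line gives all protein-coding genes, at 30.2%. Cysteine protease genes are at 100%, aspartyl protease genes at 82.4%, vacuolar ATPase genes at 19% and genes of lysosomal membrane proteins at 0.

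The E-box CACGTG was not more frequent at members than elsewhere. It lay within 100 bp of 1 of 12 promoter summits, that of asp-12 (8.33%), beside 8.45% of all, and in 2 of 51 promoters, those of cpr-1 and cpr-9 (3.92%), beside 5.82% of all. The longer form TCACGTGA, which is the core of the element known from mammalian lysosomal genes, was at none of the 12 summits and in none of the 51 promoters, beside 1.11% and 0.751% of all. AGGTCA was at 1 of 12 summits (8.33%), beside 5.64%, and in 3 of 51 promoters (5.88%), beside 8.23%. CGCGCAGG, a motif of elements that recruit the dosage compensation complex to X, was at none, beside 0.459% of all summits and 0.125% of all promoters.

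As a group, the members' promoter peaks were of ordinary strength. The median of the strongest signal per gene was 148.5, with a range of 98.03 to 378.4, beside 150.5 for all genes with a promoter summit. The median position relative to the 5' end was -310.0 bp, beside -235.5 bp for all, and 8 of 12 summits (66.7%) were upstream of the 5' end, beside 89.2% of all. Of the 12 summits 10 (83.3%) lay inside a peak among the 2796 strongest of both replicates, beside 70.6% of all. The 10 include the weaker cpr-9 summit, which in replicate 2 lay inside the interval of a stronger peak. With a replicate summit required within 100 bp the count was 9, beside 66.4% of all. In total 5 summits (41.7%) were in a window shared with another gene, beside 24.9%.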

How the data were processed

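Chromatin immunoprecipitation was measured in 2 samples of 1 group, so no comparison between conditions was possible. Peak lists in ce11 were used (the IDR, pooled and 2 replicate lists), and the lists in ce10 were not used. Per the submitters' notes deposited with the samples, the IDR list came from comparing the replicates, which used the same control. Not given in the sources used here are aligner, peak caller, versions and IDR threshold. Peak signal is the authors' deposited value, used for ranks within a list and for description. Signals of the 2 replicates are set side by side as deposited and were not scaled to each other. A deposited −log10 q per peak is given too and served no filter. The lists give no reads, so depth is unknown, and exact Clopper-Pearson intervals (95%) cover counting error only.

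Summits were assigned with Python 3.11.15 to genes of Ensembl release 115, and intervals were computed with SciPy 1.17.1. Where windows overlapped, a summit counted for every gene concerned. Positions count from 1, and a position in a promoter is the distance to the nearest annotated 5' end. Many worm 5' ends are made by trans-splicing, so the start of transcription can lie upstream. The assignment was tested on simulated peaks. Members, roles, lists and motifs were chosen with earlier results of these data known, so no set test was made and shares over all protein-coding genes stand beside each count. Every member could be named, with full values for those with a promoter summit in the IDR list, and for the rest up to 5 per role by pooled rank. Sites after 3' ends, and the members in replicate lists only, were named after their values were seen. Alternatives were other windows, assignment to the nearest 5' end, interval overlap, the strongest 1398 peaks, each replicate alone, and other motif reaches.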

Additional observations from a re-analysis of the deposited data

How the results depend on the processing

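The member count of 11 became 6 with windows from 500 bp upstream to 100 bp downstream (6.70% of all genes) and 7 among the strongest 1398 peaks (4.86%), where the other lysosome and TORC1 genes had 3. It was 16 with windows reaching 2000 bp upstream (11.3%), 9 by nearest 5' end (7.07%) and 13 by interval overlap (9.64%). It was 10 without replicate 1 (8.40%) and 15 without replicate 2 (8.65%). The median position of member summits, -310.0 bp, was -122.0 bp, -574.5 bp, -47 bp, -423 bp and -197 bp under the shorter window, the longer window, the nearest 5' end, the strongest 1398 peaks and interval overlap, and -406 to -232.5 bp with a replicate left out, so it is not a stable value. Member promoter summits with TGATAA numbered 8 of 12 within 200 bp (66.7%), beside 41.2% of all promoter summits at that reach. They then included those of vha-11, vha-13 and asp-12, so the site was not confined to cysteine protease summits. The count after 3' ends was 11 outside promoter windows (2.07% of all genes), 12 within 250 bp (2.48%) and 22 within 1000 bp (5.34%). The causes were not tested. Median signals were not computed on replicate lists, whose scale differs. No paired analysis was possible because both samples are of 1 group.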
